A study of Mus musculus with 6 samples.

Results

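Genes that mark the maturity and the surface of beta cells were followed in isolated mouse islets that had been exposed to cisplatin, a platinum drug that crosslinks DNA. The set holds 9 genes chosen by symbol: Ucn3, Trpm5, Prlr, Ffar1, Papss2, Ppp1r1a, Sytl4, Nnat and Cltrn, the last listed in older work as Tmem27. They account for 13 of the 30146 probe rows in the count table, and for 9 of its 21400 gene symbols. Expression was measured with TempO-Seq, which joins 2 neighbouring short probes on their target RNA and counts the joined product, so that each row reports the stretch of RNA under 1 probe pair. Islets came from 3 male wild-type C57Bl/6 mice, whose age is not given in the sources used here. They were kept for 48 h in RPMI with 10% serum and either cisplatin at 10 uM (3 libraries) or saline at 0.9% as vehicle (3 libraries). A cisplatin and a vehicle library of the same number carry the same biosample identifier and are taken here as islets of 1 mouse. Islets are mixed tissue, and a lower count of a beta cell gene in them cannot tell fewer beta cells from less of the RNA in each beta cell.

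Immature beta cells make insulin but respond poorly to glucose, and they gain a set of receptors, channels and secretory proteins as they mature. In the mouse, Ucn3 is among the last of these genes to come on and is widely used to mark mature beta cells. Several others of the set are known for what they do to insulin release: Trpm5 codes for a calcium-activated cation channel, Ffar1 for a receptor of long-chain fatty acids, and Sytl4 for granuphilin, which docks insulin granules at the plasma membrane. Cltrn codes for collectrin, a membrane protein that is shed from the beta cell surface.

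Cisplatin islets had much less RNA of most of these markers than vehicle islets. Trpm5 was 17.4-fold lower, Ucn3 6.66-fold, Papss2 5.81-fold, Ppp1r1a 4.89-fold and Sytl4 3.25-fold lower, each called by edgeR's quasi-likelihood test at an adjusted p under 0.05. Ffar1 and Prlr had fewer counts in every cisplatin library than in any vehicle library and did not pass the threshold. The collectrin gene Cltrn was not called, and Nnat was not called and had more counts with cisplatin. Of 11 tested probe rows of the set, 7 were called lower and 0 higher. Over the whole table, 13.9% of 9381 tested rows were called lower and 11.1% higher. The median log2 fold change, cisplatin over vehicle, was -2.29 over the 11 rows and -0.07 over all tested rows. In 9 of the 11 rows all 3 cisplatin libraries lay below all 3 vehicle libraries, as did 24.3% of all tested rows. All rows of the set together took 0.145%, 0.115% and 0.122% of the counts in the cisplatin libraries 1 to 3, against 0.883%, 0.628% and 1.07% in the vehicle libraries 1 to 3.

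**Figure D1:**
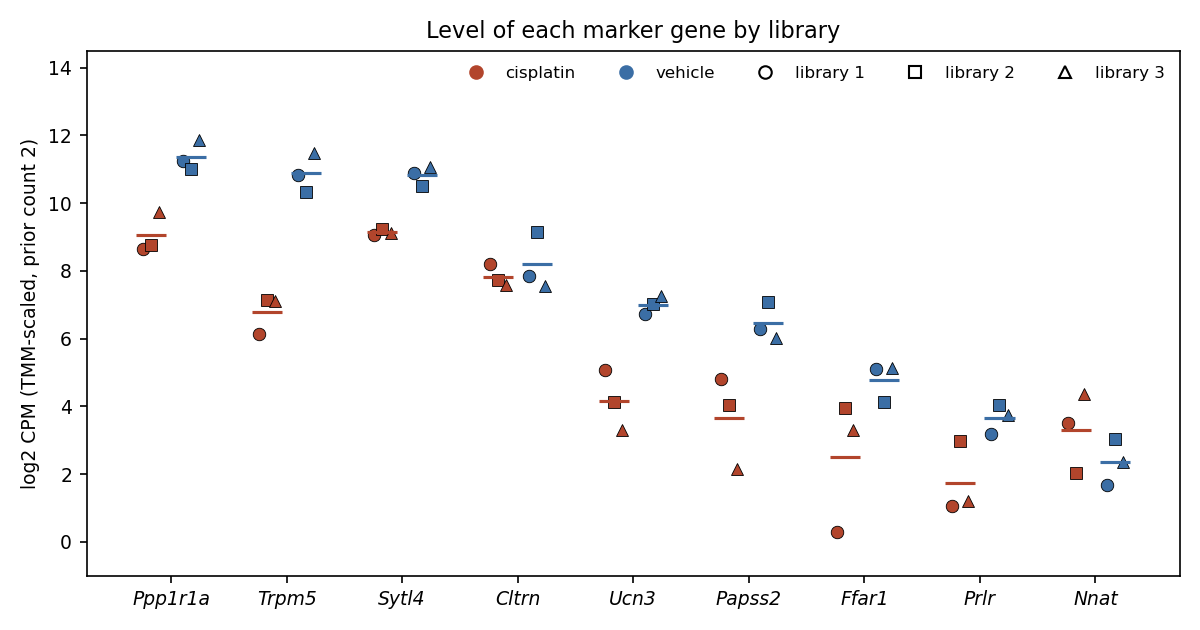
Level of the most abundant probe of each gene in each library, as log2 CPM with TMM scaling and a prior count of 2, for cisplatin (red, left) and vehicle (blue, right); symbols mark the library number and bars the mean of 3. The cisplatin libraries lie below all vehicle libraries for each gene except Cltrn and Nnat.

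Libraries held 1116916, 1348297 and 1366829 counts with cisplatin and 1998063, 1470227 and 2272276 with vehicle. The treatment marker Cdkn1a, an arrest gene induced by p53, was 21.9-fold higher in cisplatin libraries. Insulin probes of Ins1 and Ins2 took 3.31% to 10.1% of the counts in cisplatin libraries and 7.81% to 10.8% in vehicle libraries, and insulin RNA was thus abundant in all 6. Cisplatin library 3 stood apart, with 28.6% of its counts on mitochondrially encoded rows, against 0.188% to 3.11% in the other 5. Leaving it out kept all 7 calls. The summed CPM (counts scaled to library size with TMM factors) of 8 beta cell markers, mostly insulin and amylin, was 59661 to 140040 in cisplatin libraries and 91809 to 161770 in vehicle libraries, with none at 0. That of 8 alpha cell markers, mostly glucagon, was 8286 to 11228 against 18981 to 52160, with Irx1 at 0 in cisplatin libraries. Sums of 9 immune markers were 11.0 to 56.8 against 132 to 212, with Adgre1 at 0 in cisplatin libraries, and those of 8 acinar markers 8.58 to 30.4 against 5.68 to 15.3, with Prss2, Amy2a5, Cela2a and Ptf1a at 0 in cisplatin libraries. Delta cell sums were 1230 to 2359 against 1345 to 3421 and duct sums 1181 to 2171 against 1043 to 1450. PP cell sums were 334 to 791 against 676 to 1874.5 and stromal sums 30.4 to 51.3 against 50.5 to 142. Called lower were 3 of 7 tested beta cell markers, 3 of 6 alpha, 5 of 6 immune, 1 of 2 PP and 1 of 4 stromal ones. In these lists 0 were called higher, and no tested delta, duct or acinar marker was called. Over all tested rows 13.9% were called lower and 11.1% higher. Endothelial sums were 44.0 to 81.8 against 77.7 to 111, and their members were called in both directions. Kdr (-3.35), Eng (-2.54) and Cd34 (-3.34) were called lower, and Esam (1.19), which made up most of the cisplatin sums, was called higher. The part of shifts between cell types in the results on the marker genes was not tested.

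Promoter sequence was available for 8 of the 9 genes from RefSeq (GRCm38.p6). The 250 bases before the annotated start are shown for Ucn3, the maturity marker of the set, for Trpm5, the gene with the lowest ratio, and for Cltrn, a gene whose RNA was not called, so that the start regions can be set side by side. Capitals mark matches on either strand to any of 4 short motifs. The core of the site bound by MAF factors was searched as TGCTGA. The core recognised by many homeodomain factors was searched as TAATTA. The E-box of the NEUROD1 type was taken as CAGATG. The forkhead core was taken as TGTTTAC.
Ucn3, chr13:3945350-3945599, minus strand: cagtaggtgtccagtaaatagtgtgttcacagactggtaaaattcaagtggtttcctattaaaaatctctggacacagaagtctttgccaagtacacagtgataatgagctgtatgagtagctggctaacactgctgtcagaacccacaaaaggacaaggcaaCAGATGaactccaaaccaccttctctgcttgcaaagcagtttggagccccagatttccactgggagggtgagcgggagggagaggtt
Trpm5, chr7:143094643-143094892, minus strand: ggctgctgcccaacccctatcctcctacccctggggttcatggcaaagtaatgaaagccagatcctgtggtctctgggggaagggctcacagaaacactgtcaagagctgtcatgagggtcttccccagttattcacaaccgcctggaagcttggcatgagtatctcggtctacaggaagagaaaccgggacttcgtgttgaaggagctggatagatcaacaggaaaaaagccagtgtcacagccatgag
Cltrn, first of 2 annotated starts, chrX:164089937-164090186, plus strand: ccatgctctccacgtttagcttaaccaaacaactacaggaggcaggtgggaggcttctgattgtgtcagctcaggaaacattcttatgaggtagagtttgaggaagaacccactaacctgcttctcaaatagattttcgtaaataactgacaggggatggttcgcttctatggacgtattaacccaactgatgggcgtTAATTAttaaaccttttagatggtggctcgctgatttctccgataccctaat
The Ucn3 window held 1 match, the E-box, at 82 to 87 bases before the start. The E-box occurs in 14.4% of 32851 promoter windows of this length. None of the 4 motifs was found in the Trpm5 window. The Cltrn window held the homeodomain core, which reads the same on both strands, at 47 to 52 bases before the start. The homeodomain core occurs in 4.84% of windows. The windows of Sytl4, Nnat and Papss2 and that of the second Cltrn start held no match. That of Ffar1 held the MAF core and the E-box, with the MAF core in 16.1% of all windows. The forkhead core, found in 3.17% of all windows, occurred in the set at 1 of the 3 annotated starts of Prlr. That window also held the MAF core and the E-box, but the bases after its start were not found in any annotated Prlr transcript searched. The window of the first Prlr start held the MAF core. These matches describe the letters of the windows and say nothing of binding.

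Among the membrane proteins, Trpm5 had the largest fall. The channel it codes for opens when cytosolic calcium rises and helps depolarise the beta cell. Its most abundant probe, 63232, had 68.5, 141 and 136 CPM in cisplatin libraries 1 to 3, against 1830, 1282 and 2884 CPM in vehicle libraries 1 to 3. The highest cisplatin value was far below the lowest vehicle value. The log2 fold change was -4.12 ± 0.40 (SE; edgeR adjusted p = 3.5e-05), and 145 of the 9381 tested rows had a lower one. A second probe, 64805, had a sum of 33 counts with cisplatin and 1768 with vehicle (-4.53 ± 0.52, adjusted p = 7.7e-05). Another probe, 81858, had 8 and 340 counts (-4.24 ± 0.74, adjusted p = 0.00121), and 7 of the 8 lay in cisplatin library 2. Without that library its value was -6.50, and without cisplatin library 1 it was -3.53. Probe 77572 had 0 counts in all 6 libraries. The 3 tested probes sit on the same gene and are not replicates. No difference between their fold changes was called (edgeR's diffSpliceDGE, adjusted p = 0.956), in a table where 0.617% of 1782 genes with several tested rows were called. Within a library, probe 63232 took 93.1%, 86.0% and 92.0% of the Trpm5 counts with cisplatin and 83.9%, 90.2% and 88.0% with vehicle.

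Ffar1 codes for GPR40, a receptor through which long-chain fatty acids amplify glucose-stimulated insulin release. Its probe had 0, 15 and 8 counts in cisplatin libraries 1 to 3, against 83, 26 and 86 in vehicle libraries 1 to 3. In CPM these were 0, 14.3 and 8.58 against 32.8, 16.4 and 33.8. The ranges did not overlap, but cisplatin library 2 came close to vehicle library 2, which is from the same mouse. Its log2 fold change was -1.88 ± 0.79 with a 95% interval of -3.59 to -0.18, and the edgeR adjusted p was 0.0987. The gene was called lower with library totals alone as the scale (-2.48, adjusted p = 0.0191) and with no filter (-2.0, adjusted p = 0.0274). Without cisplatin library 1 the log2 fold change was -1.19 and without cisplatin library 2 it was -2.78, called in neither case.

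Prlr codes for the prolactin receptor, which drives the growth of beta cells in pregnancy. Its probe was the sparsest among the markers with a lower level in all 3 mice, with 1, 7 and 1 counts in cisplatin libraries 1 to 3 and 20, 24 and 31 in vehicle libraries 1 to 3. In CPM the levels were 0.846, 6.65 and 1.07 with cisplatin, against 7.91, 15.2 and 12.2 with vehicle, without overlap. The log2 fold change was -2.01 ± 0.91 (95% interval -3.95 to -0.06, edgeR adjusted p = 0.123). Library 2 held 7 of the 9 cisplatin counts, and without it the gene was called lower (-3.53, adjusted p = 0.0383).

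Cltrn had 345, 221 and 177 counts in cisplatin libraries 1 to 3 and 586, 894 and 477 in vehicle libraries 1 to 3. The levels were 292, 210 and 190 CPM with cisplatin, against 232, 564 and 188 CPM with vehicle. The groups overlapped, and vehicle library 2 stood above the other 5 libraries. Its log2 fold change was -0.50 ± 0.38 (95% interval -1.32 to 0.31, edgeR adjusted p = 0.367), and without vehicle library 2 it was 0.12. The lower end of the interval is a 2.50-fold lower level in cisplatin islets.

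Ucn3 codes for urocortin 3, a peptide that beta cells release with insulin and that stimulates the release of somatostatin from delta cells. It had 38, 17 and 8 counts in cisplatin libraries 1 to 3, against 267, 203 and 387 in vehicle libraries 1 to 3. The levels were 32.1, 16.2 and 8.58 CPM with cisplatin and 106, 128 and 152 CPM with vehicle. The log2 fold change was -2.73 ± 0.43 (95% interval -3.67 to -1.80, edgeR adjusted p = 6.4e-04). Vehicle libraries lay close together, with an SD of 18.2% of the mean, while the cisplatin libraries spread over 63.4% of theirs. Within the mice, the cisplatin level was 30.4%, 12.6% and 5.63% of the vehicle level in mice 1 to 3.

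Ppp1r1a and Sytl4, both for proteins inside the cell, had at least 459 and 514 counts in every library. Ppp1r1a codes for inhibitor 1 of protein phosphatase 1, which is switched on by protein kinase A. It had 397, 436 and 849 CPM in cisplatin libraries 1 to 3, against 2435, 2075 and 3706 CPM in vehicle libraries 1 to 3. Library 3 was the highest of both groups, and the groups were far apart. Its log2 fold change was -2.29 ± 0.37 (edgeR adjusted p = 7.1e-04). Sytl4, whose product binds RAB27A on the granule, had 533, 605 and 551 CPM in cisplatin libraries 1 to 3, against 1897, 1460 and 2138 CPM in vehicle libraries 1 to 3. The cisplatin libraries varied by 6.63% of their mean and the vehicle libraries by 18.7%, the least spread of the set with cisplatin. The log2 fold change was -1.70 ± 0.28 (edgeR adjusted p = 7.8e-04).

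**Figure D2:**
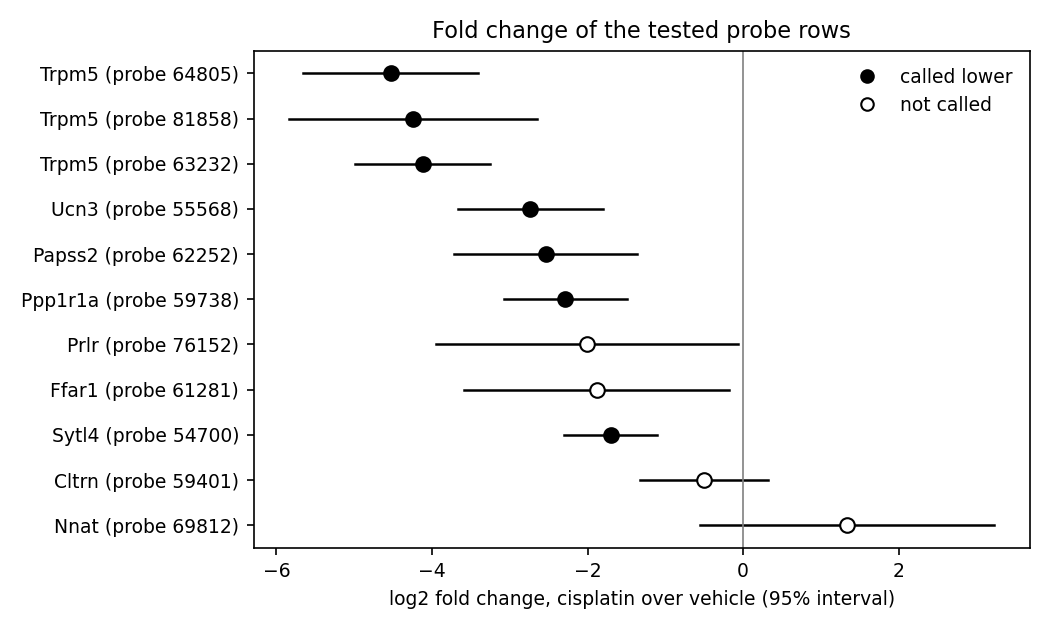
Log2 fold change, cisplatin over vehicle, of the 11 tested probe rows with 95% intervals from the edgeR fit; filled circles were called lower at an adjusted p under 0.05 and open circles were not called. The 3 Trpm5 probes lie lowest, from -4.53 to -4.12, and the intervals of Cltrn and Nnat include 0.

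Papss2 codes for an enzyme that makes the activated sulphate used by sulphotransferases. It had 32, 16 and 3 counts in cisplatin libraries 1 to 3, against 192, 211 and 160 in vehicle libraries 1 to 3. The levels were 27.1, 15.2 and 3.22 CPM with cisplatin and 75.9, 133 and 63.0 CPM with vehicle. As for Ucn3, library 1 was the highest and library 3 the lowest of the cisplatin libraries. Its log2 fold change was -2.54 ± 0.55 (edgeR adjusted p = 0.00452), and -3.18 without cisplatin library 1.

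Nnat codes for neuronatin, a small membrane protein of the endoplasmic reticulum that acts with the signal peptidase complex in beta cells and whose gene is imprinted. Both of its probes were close to the detection limit. Probe 69812 had 12, 3 and 18 counts in cisplatin libraries 1 to 3 and 5, 11 and 10 in vehicle libraries 1 to 3, and the groups overlapped (log2 fold change 1.34 ± 0.88, 95% interval -0.56 to 3.23, edgeR adjusted p = 0.297). Without cisplatin library 3 the value was 0.64. Probe 75320 had 11, 5 and 7 against 4, 5 and 6 counts and was too low to be tested. Its CPM was 9.30, 4.75 and 7.51 with cisplatin and 1.58, 3.16 and 2.36 with vehicle, without overlap. With summed counts of 23 and 15 the ratio was 322%, with an exact 95% counting interval of 161% to 664% that covers counting error only.

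Within each mouse, the genes differed in how even the change was. Sytl4 kept 28.1%, 41.4% and 25.8% of the vehicle CPM in mice 1 to 3, and Ppp1r1a kept 16.3%, 21.0% and 22.9%. Trpm5 probe 63232 kept 3.74%, 11.0% and 4.72%, with mouse 2 the least affected. Papss2 kept 35.7%, 11.4% and 5.11%, the same order over the mice as Ucn3. Ffar1 kept 0%, 86.9% and 25.3%, and Cltrn stood at 126%, 37.2% and 101%. Cisplatin libraries 1 and 3 are the ends of the Ucn3 and Papss2 ranges, and they differ in mitochondrial share, 2.83% against 28.6%. The part of that difference was not tested.

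**Figure D3:**
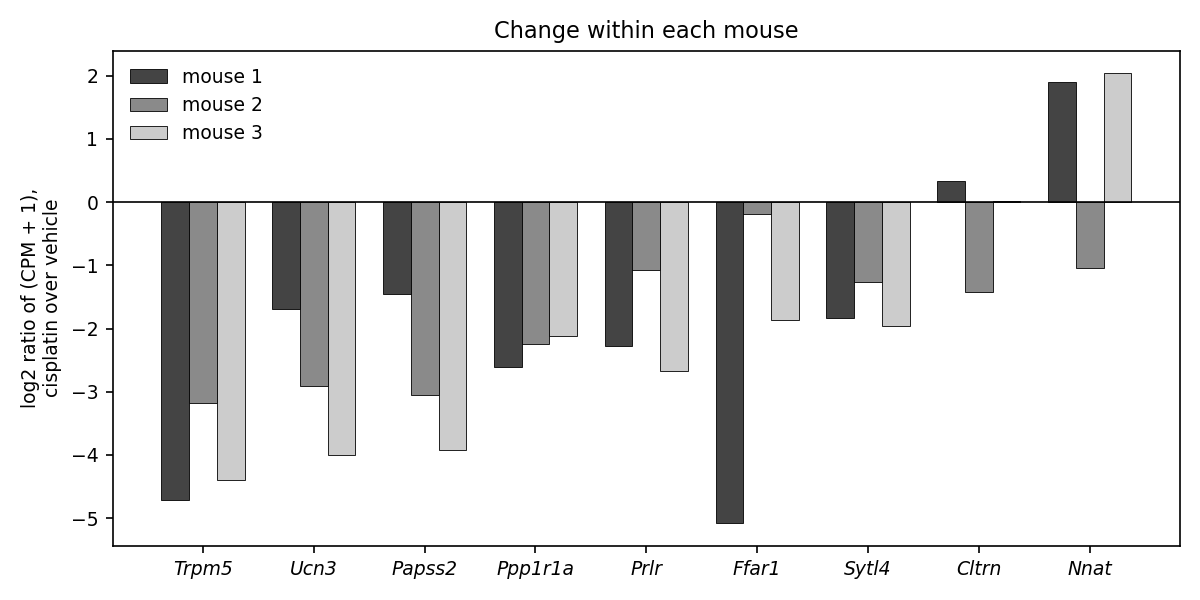
Log2 ratio of CPM + 1, cisplatin over vehicle, within each of the 3 mice for the most abundant probe of each gene. Trpm5, Ucn3, Papss2, Ppp1r1a, Prlr, Ffar1 and Sytl4 were below 0 in 3 of 3 mice, Cltrn and Nnat in 1 of 3.

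Genes with the most similar course were found among 2553 genes with a mean of 50 CPM or more. Likeness was the root mean square difference of log2 CPM over the 6 libraries, each gene centred on its own mean, so that 0 is an identical course. Trpm5 was closest to Phactr1 (0.27), Sil1 (0.31) and Chrm3 (0.32). Ucn3 was closest to Sort1 (0.33), Arhgap26 (0.38) and Abat (0.40). Papss2 was closest to Maob (0.37), Abca1 (0.42) and Ucn3 itself (0.51). Ppp1r1a was closest to Slc7a2 (0.20), Creb3l2 (0.21) and Acly (0.24). Sytl4 had the tightest neighbours of the called genes, namely Ptpru (0.11), Abr (0.12) and Baiap3 (0.13). Prlr was closest to Peg3 (0.28), Abca2 (0.35) and Maged1 (0.38), and Ffar1 to Zbtb40 (0.45), Wdr7 (0.47) and Dagla (0.51). Cltrn was closest to Phip (0.09), Sf3b1 (0.18) and Asns (0.22), and Nnat to H3c13 (0.39), Aff4 (0.40) and Pik3ca (0.44). Within the set the closest pairs were Ppp1r1a with Sytl4 (0.50) and Ucn3 with Papss2 (0.51), and the most distant was Trpm5 with Nnat (2.72).

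The partners of these proteins moved unevenly. Counts in the lists below stand beside 13.9% of all tested rows called lower and 11.1% called higher. They were not tested against these shares. Of the 7 genes of the urocortin and corticotropin-releasing factor system only Sst, the somatostatin gene, was tested and it was not called (-0.57 ± 0.38). The urocortin 3 receptor gene Crhr2 had 9 counts with cisplatin and 33 with vehicle, too few for the test. Among the relatives of Trpm5, Trpm2, a cation channel gated by ADP-ribose, was the tested member and rose. It had 222, 154 and 396 CPM in cisplatin libraries 1 to 3, against 54.9, 62.5 and 59.4 CPM in vehicle libraries 1 to 3 (2.12 ± 0.35, edgeR adjusted p = 8.1e-04). A second Trpm2 probe was also called higher (2.24 ± 0.67). The close Trpm5 relative Trpm4 had 0 and 3 counts.

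Of 8 tested genes of prolactin and growth hormone receptor signalling, 3 rose and 2 fell, with a median of -0.01. The growth hormone receptor gene Ghr had 5.07, 4.75 and 2.14 CPM with cisplatin and 43.5, 44.8 and 42.5 CPM with vehicle (-3.40 ± 0.53). Socs1 (3.60 ± 0.73) and Socs3 (2.90 ± 0.71), feedback inhibitors of cytokine receptors, rose, as did Bcl6 (2.04 ± 0.59), a repressor that competes with STAT5 at its sites. The Bcl6 call was lost under the mouse block, on the scales of library totals and of insulin probe counts, with no filter, and when cisplatin library 2 or any 1 vehicle library was dropped. The adjusted p was then between 0.0598 under the block and 0.127 on the insulin scale. Socs3 lost its call if cisplatin library 2 (2.26, adjusted p = 0.0723) was dropped, or vehicle library 3 (2.69, adjusted p = 0.0513), and dropping vehicle library 1 gave 3.80. The number that rose was 1 without cisplatin library 2 or vehicle library 3. The number that fell was 1 without cisplatin library 1 or 3 or vehicle library 1 or 3.

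Of 5 tested genes around the fatty acid receptors and Gq signalling 1 rose and 1 fell, with a median of -0.86. Plcb1, a phospholipase that Gq activates, had 2 counts with cisplatin and 132 with vehicle, 31.4-fold lower by ratio. The 95% counting interval of 8.52 to 262 covers counting error only. The edgeR log2 fold change of Plcb1 was -4.72 ± 0.96 (adjusted p = 0.00311). Its relative Plcb3 rose, with 136, 151 and 136 CPM in cisplatin libraries 1 to 3 and 48.2, 55.6 and 70.1 CPM in vehicle libraries 1 to 3 (1.28 ± 0.30). The call of Plcb3 was lost with library totals alone (0.82, adjusted p = 0.105), when vehicle library 1 was dropped (adjusted p = 0.0548), and on a scale set by insulin probe counts, chosen after seeing the data (adjusted p = 0.164). The number of genes in this list that fell was 2 under the mouse block, on library totals and without cisplatin library 3. By the most abundant probe, 1 of 5 tested genes of sulphate activation fell, Papss1, the other enzyme that makes activated sulphate, with 5 counts against 92 (-3.05 ± 0.85, adjusted p = 0.0174; list median -0.25). That call was lost under the mouse block (adjusted p = 0.0537), in limma-voom (adjusted p = 0.0764), for summed probes (-1.45, adjusted p = 0.0679) and when any 1 vehicle library was dropped (adjusted p = 0.054 to 0.173). A second Papss1 probe was not called (-1.02 ± 1.14). For genes not called by the most abundant probe, another probe of the sulphate nucleotidase gene Bpnt1 was called lower (-2.34 ± 0.70, edgeR adjusted p = 0.0257), and another of the sulphate transporter gene Slc26a2 was called higher (2.0 ± 0.55, edgeR adjusted p = 0.0166). The number in this list that fell was 0 under the block or without any 1 vehicle library, and 2 on library totals or without cisplatin library 1.

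Synaptotagmin-like genes and genes around RAB27 were called in both directions. Of 6 tested genes 4 fell and 1 rose, with a median of -1.66. The 1 that rose was Sytl1, a relative of Sytl4. The RAB27 effector gene Myrip had 0 counts with cisplatin and 80 with vehicle, at least 12.7-fold lower when cisplatin is set to the floor of 3 counts for its 3 libraries together, a value that leaves the list's median where it is. Unc13b, a granule priming factor, had 32.1, 39.0 and 36.5 CPM with cisplatin and 233, 165 and 225 CPM with vehicle (-2.53 ± 0.31, edgeR adjusted p = 1.0e-04). Mlph, a RAB27 effector best known in pigment cells, fell (-1.72 ± 0.43), a call lost when vehicle library 1 was dropped (adjusted p = 0.0646) and on the insulin scale (adjusted p = 0.145). Sytl1, another synaptotagmin-like gene, rose, with 173, 164 and 247 CPM in cisplatin libraries 1 to 3 and 34.4, 38.5 and 31.1 CPM in vehicle libraries 1 to 3 (2.49 ± 0.31, edgeR adjusted p = 1.2e-04). Sytl4 and Sytl1 were thus called in opposite directions. The remaining gene that fell was Rab27a. It had 45.7, 49.4 and 34.3 CPM in cisplatin libraries 1 to 3 and 121, 144 and 128 CPM in vehicle libraries 1 to 3 (-1.59 ± 0.31, edgeR adjusted p = 0.00243).

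Around the remaining proteins, Ppp1r3c, which targets protein phosphatase 1 to glycogen, rose (2.48 ± 0.52, or 3.20 without vehicle library 2). It was the 1 call among 5 tested genes of protein phosphatase 1 and protein kinase A (median 0.11). On library totals 2 genes of that list were called lower. Blcap, the gene within whose span Nnat lies on the opposite strand without overlap with a Blcap exon, had 174, 239 and 300.3 CPM in cisplatin libraries 1 to 3 and 39.9, 61.2 and 33.5 CPM in vehicle libraries 1 to 3 (2.41 ± 0.34, edgeR adjusted p = 2.6e-04). The most abundant probe was not called for any of the 4 tested signal peptidase genes (list median -0.24), while a second probe of Spcs3 was called lower (-1.49 ± 0.47, edgeR adjusted p = 0.0325). On the scale of library totals 1 gene of this list fell. Bace2, the protease that sheds collectrin from beta cells, had 112, 128 and 157 CPM in cisplatin libraries 1 to 3 and 456, 584 and 615 CPM in vehicle libraries 1 to 3 (-2.06 ± 0.28, edgeR adjusted p = 1.9e-04). A second Bace2 probe was called lower as well (-2.40 ± 0.30). Of the 2 tested partners of collectrin Bace2 was the 1 called (list median -0.77). The difference between the changes of Bace2 and Cltrn was not tested.

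**Figure D4:**
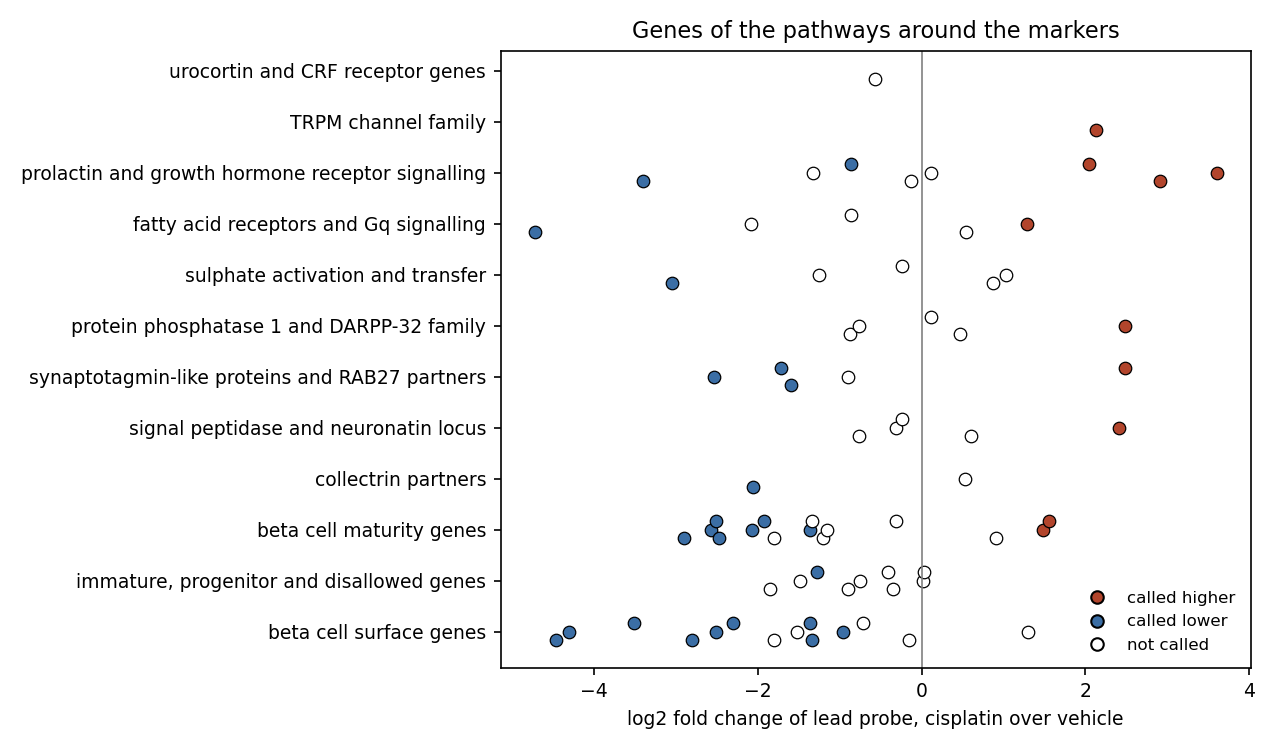
Log2 fold change, cisplatin over vehicle, of the most abundant probe of each tested gene in the 12 lists around the markers; red was called higher, blue lower and white not called, and vertical offsets only separate points. Myrip, at 0 counts with cisplatin, is left out.

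Other genes of beta cell maturity fell in part. Of 15 tested 7 were called lower and 2 higher, with a median of -1.36. Those with the largest changes were Mafa (-2.90 ± 0.32), which codes for an activator of insulin transcription, Gjd2 (-2.57 ± 0.42), the gap junction protein of islets, Abcc8 (-2.51 ± 0.30), a subunit of the ATP-sensitive potassium channel, and Ero1lb (-2.47 ± 0.31), an oxidase for insulin folding. The 2 called higher, picked after their values were seen, were Rgs4 (1.55 ± 0.33) and Syt4 (1.48 ± 0.46), whose groups overlapped, and 1 was higher with library totals alone or without cisplatin library 2 or vehicle library 1 or 2. The list of beta cell surface genes shares Abcc8 and Glp1r, each called lower, and Slc2a2, not called, with the maturity list. Of its 14 tested genes 9 were called lower and 0 higher, with a median of -1.66. These included the adhesion molecule Ncam1 (-4.47 ± 0.35), the muscarinic receptor gene Chrm3 (-4.31 ± 0.48), the guidance receptor gene Robo1 (-3.52 ± 0.51) and the amino acid transporter gene Slc7a8 (-2.81 ± 0.78). Robo1 was at -4.42 without cisplatin library 1. Slc7a8 was at -4.74 without cisplatin library 2, and its call was lost when cisplatin library 3 or vehicle library 1 or 2 was dropped (adjusted p = 0.0609 to 0.0861). A list of immature, progenitor and disallowed genes, the last being genes that beta cells keep low, was mostly near the detection limit. Of 9 tested 0 were called higher and 1, the peptide hormone gene Pyy, fell (-1.28 ± 0.36, list median -0.75). Pyy also serves here as a marker of PP cells, so its fall is not particular to beta cells. The Pyy call was lost when cisplatin library 2 or 3 or vehicle library 2 was dropped (adjusted p = 0.0698 to 0.0966) and on the insulin scale (adjusted p = 0.245), and its value without vehicle library 2 was -0.74. Of the 22 genes in this list 13 were too low to be tested, among them Neurog3 with 4 and 4 counts and Aldh1a3 with 1 and 0.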

How the data were processed

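The deposited table holds counts, whole numbers per probe row and library. Tools named in the submitters' processing notes are STAR 2.7.10b, fastp 0.23.2 and DESeq2 1.44.0; no source used here states the alignment reference or the counting rule. In R 4.3.3, the filterByExpr filter of edgeR 4.0.16 (minimum count 10) left 9381 rows. These were scaled with TMM factors and given the robust quasi-likelihood F-test, with no term beside treatment. Adjustment of p-values was over all tested rows with the Benjamini-Hochberg method, two-sided, and called under 0.05. Values are mean ± SD or log2 fold change ± SE, cisplatin minus vehicle, n = 3 each. A gene was represented by its probe with the highest mean CPM. CPM is not compared between genes, since probes may differ in efficiency.

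The members and lists were chosen with earlier results of these data known. Genes of a list were named by a rule: up to 4 called genes by size of change, or, with none called, the 2 tested genes of highest mean CPM. Rab27a was named outside the rule, since its product binds that of Sytl4. The script was tested on simulated counts. Same-numbered libraries of both arms carry 1 biosample identifier, so the numbers pair them; deviations from the group means correlated at -0.116, 0.0336 and 0.219 in the 3 pairs. A fit blocked by mouse was an alternative, beside RLE factors, library totals, other filters, DESeq2 1.42.0, limma-voom 3.58.1, summed probes, thinning, removal of the 10 most abundant rows and of each library. A scale set by insulin probe counts was added after seeing the data. P-values of the main fit set the difference between arms against the spread among 3 libraries of each arm, without the pairing by mouse. Promoter windows came from RefSeq. Some genes and motifs are not reported here.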

Additional observations from a re-analysis of the deposited data

How the results depend on the processing

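The 7 calls among probe rows of the marker genes held with RLE factors, library totals alone, no filter, a minimum mean of 10 CPM, DESeq2, limma-voom, the mouse block, thinning, removal of the 10 most abundant rows and of each single library, and the 5 called genes also with probes summed. The number of rows called lower was 7 or 8, the eighth being Ffar1 or Prlr, and 0 were higher. With the mouse as a replicate block 7 rows of the set were lower and 2197 rows were called over the whole table, against 2344 without it. Among the marker rows and the list genes named by the rule, the block changed only the calls of Bcl6 and Papss1. Second probes of list genes, Rab27a, the endothelial markers, the counts of called cell type markers and Cdkn1a were not followed under the block. With each library scaled by its insulin probe counts, an alternative chosen after seeing the data, 1018 rows were called over the whole table and 3 marker genes instead of 5 were lower. Ppp1r1a (-2.07, adjusted p = 0.0624) and Sytl4 (-1.72, adjusted p = 0.103) were then not called, nor were Bcl6, Plcb3, Mlph and Pyy, and the cause was not tested. Leaving out 1 library at a time gave 1085 to 2538 called rows, with 1085 without vehicle library 1 and 1321 without vehicle library 3. Cltrn ranged from -0.81 without vehicle library 3 to 0.12 without vehicle library 2. The test of probe differences in Trpm5 had an adjusted p of 0.56 to 0.997 over its alternatives. Library totals alone moved the median of all rows to -0.54, with 459 higher and 2023 lower. The uncalled tested probes of Prlr, Ffar1 and Nnat had 9 to 33 counts over the 3 cisplatin libraries and 26 to 195 over the 3 vehicle libraries. Trpm5 probe 81858, which was called, had 8 with cisplatin and 340 with vehicle. Whether depth set the missing calls was not tested.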
